A study of Mus musculus with 3 samples.

Results

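The enzymes described here dispose of nitrogen in the liver. They are 9 genes fixed by name, namely 4 enzymes of the urea cycle (Cps1, Otc, Ass1 and Arg1), 3 that handle ornithine, glutamine and aspartate (Oat, Glul and Got1) and 2 that break down tyrosine and histidine (Hpd and Hal). Every probe set of an Affymetrix mouse array annotated to one of these symbols was taken and kept apart from the others, which gave 11 probe sets out of 10833 with a single gene symbol, and 9 genes out of 8251. Oat and Glul had 2 probe sets each and the other 7 genes had 1. The livers came from male mice homozygous for a disrupted Apoe gene, on a mixed C57BL/6JxOLA129 background, which were 3 months old when the diets began. All groups carried this disruption, and each was fed for 12 weeks with fat at 30% of the energy. The t10,c12-CLA group (9 mice assigned) and the c9,t11-CLA group (10 mice) received 1.0% by weight of that isomer of conjugated linoleic acid (CLA), and the control group (10 mice) received 1.0% linoleic acid. The design text calls the food semi-purified while the sample labels call it a western diet. There was 1 array for each diet, and the labels do not state whether it held RNA of 1 mouse or of several. No difference therefore has a replicate check, and the diets are compared by the size of the difference alone, without p-values.

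Amino acids that the body does not need for protein lose their nitrogen in the liver, and the ammonia so released is toxic. Hepatocytes around the portal vein turn most of it into urea through the urea cycle, and a thin ring of hepatocytes around the central vein traps what is left as glutamine. Expression of these enzymes is known to follow protein intake, glucagon, glucocorticoids and insulin, and in mice the fatty acid receptor PPARA is known to lower several of them.

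The value for each probe set was the deposited MAS5 signal, a hybridisation brightness on a linear scale. Signals at or below 490.3, the median of all signals on the 3 arrays, were treated as too dim to compare, and a probe set was measured in a comparison when it lay above this floor on both arrays. Median signals were 487 (t10,c12-CLA), 524 (c9,t11-CLA) and 457 (control). The ratio of the 3′ to the 5′ probe set of Gapdh, a sign of RNA quality, was 0.779 on t10,c12-CLA, 0.981 on c9,t11-CLA and 1.06 on control. The same ratio for beta-actin was 1.35 on t10,c12-CLA, 1.89 on c9,t11-CLA and 1.40 on control, so that c9,t11-CLA, the array with the largest differences from control in Oat and Hpd, stood apart for this gene. Of 2 probe sets for Apoe, the brighter gave 4288 on t10,c12-CLA, 8695 on c9,t11-CLA and 6570 on control and the dimmer lay below the floor on all 3 arrays. No wild-type liver was included, so neither checks the genotype. The tissue label was compared with marker genes. All 7 hepatocyte markers on the array were above the floor on the 3 arrays, while all 6 kidney tubule markers were below it on all 3, as were 5 of 6 skeletal muscle markers. The intestinal markers Vil1 and Lct were below the floor on all 3 arrays, but Fabp2 gave 5518, 2682 and 5022 on the t10,c12-CLA, c9,t11-CLA and control arrays. Tff3 gave 244, 5219 and 821 and Dmbt1 gave 165, 359 and 3762 in the same order. Of the 5 pancreas acinar markers on the array 0 were below the floor on all 3 arrays. Cela1 gave 3120, 3506 and 3759, Ctrb1 2558, 1945 and 2296 and Cel 1602, 2292 and 1747. Prss2 gave 297, 537 and 290, above the floor on c9,t11-CLA alone. Clps gave 497, 300 and 504, close to the floor where it passed it. The Ctrb1 probe set has an identifier that marks relaxed probe selection rules. Of 3 adipocyte markers 2 were below the floor on all 3 arrays, but Lep gave 1414, 2886 and 2488. The part of these transcripts and of RNA quality in the results below was not tested. Fewer cells of a type and less RNA per cell cannot be told apart in whole liver.

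The stretches upstream of 3 of the genes are shown because Oat and Hpd were the only measured members at least 2-fold apart between an isomer and control, and because Hal lay nearest to no difference on c9,t11-CLA. Each is the 250 bases before the gene's start in RefSeq (build GRCm38.p6), written 5′ to 3′ along the gene, with the motifs searched in capitals. RefSeq promoters were found for 7 of the 9 members.
Oat, chr7:132576399-132576648, minus strand: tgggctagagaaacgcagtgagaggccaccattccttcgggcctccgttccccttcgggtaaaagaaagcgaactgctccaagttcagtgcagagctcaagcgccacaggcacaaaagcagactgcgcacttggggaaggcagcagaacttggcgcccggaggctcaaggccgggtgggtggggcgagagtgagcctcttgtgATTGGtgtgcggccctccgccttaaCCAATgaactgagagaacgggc
Hpd, chr5:123182724-123182973, minus strand: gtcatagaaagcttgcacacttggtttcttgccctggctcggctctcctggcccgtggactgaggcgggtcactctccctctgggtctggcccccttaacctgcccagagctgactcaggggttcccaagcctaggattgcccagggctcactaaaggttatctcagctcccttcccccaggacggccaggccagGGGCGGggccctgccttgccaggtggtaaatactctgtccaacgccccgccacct
Hal, chr10:93488518-93488767, plus strand: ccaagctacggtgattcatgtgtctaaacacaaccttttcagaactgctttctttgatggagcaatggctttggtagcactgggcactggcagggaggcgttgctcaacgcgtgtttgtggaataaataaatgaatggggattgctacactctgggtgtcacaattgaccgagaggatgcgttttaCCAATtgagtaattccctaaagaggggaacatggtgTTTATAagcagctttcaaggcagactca

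The motifs, searched on both strands, were TATAAA for the TATA box, CCAAT for the CCAAT box, GGGCGG for the GC box, CACGTG for the E-box, AGGTCA for a nuclear receptor half-site and TGTTCT for a glucocorticoid half-site. The Oat stretch held a CCAAT box on each strand, which began 22 and 47 bases before the start. A CCAAT box was found in 34.5% of 27025 gene promoters of this length and in 35.9% of those of genes on the array. It was in 4 of the 7 member promoters (Oat, Hal, Glul and Got1). The Hpd stretch held a GC box that began 55 bases before the start, a motif of 32.9% of all promoters, of 54.8% of the 6576 that belong to genes on the array and of 3 of the 7 (Hpd, Ass1 and Glul). Hal held a CCAAT box and, on the opposite strand, a TATA box that began 28 bases before the start. The TATA motif was in 13% of all promoters and 9.34% of those of genes on the array. The E-box was in Ass1 alone (6.05% of all promoters and 8.42% of those of genes on the array). The nuclear receptor half-site was in Glul and Got1 (13.8% and 11.3%) and the glucocorticoid half-site in none of the 7 (16.2% and 11.7%). The E-box reads the same on both strands, and no motif found in a member overlapped another. A match of letters describes the sequence only.

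Oat was lower and Hpd higher on both CLA arrays than on control, further so on c9,t11-CLA, and the other measured members lay within 2-fold of control. On t10,c12-CLA 0 of the 9 measured member probe sets reached 2-fold in either direction. Among all 5037 measured probe sets, 2.18% were 2-fold higher and 1.87% 2-fold lower. On c9,t11-CLA 1 of 9 was at least 2-fold higher (Hpd) and 1 was 2-fold lower (Oat), against 3.24% and 2.76% of 4932 measured probe sets. The remaining 2 of the 11 probe sets, 1 each for Oat and Got1, were below the floor on every array. The median log2 difference from control over the 9 was -0.17 on t10,c12-CLA (2 above 0, 7 below) and 0.14 on c9,t11-CLA (6 above 0, 3 below). Of the 6 above 0 on c9,t11-CLA, 4 (Cps1, Arg1, Otc and Hal) fell below 0 under another scaling of the arrays. Medians over all measured probe sets were -0.00 and 0.03. The comparisons with control share the control array, so their values are given side by side only. With the arrays set to equal medians, the median of all probe sets moved by -0.08 for t10,c12-CLA and -0.18 for c9,t11-CLA. Higher ones then made up 38.8% of all probe sets past 2-fold on t10,c12-CLA and 26.4% on c9,t11-CLA, in place of 53.9% and 54.1%.

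**Figure D1:**
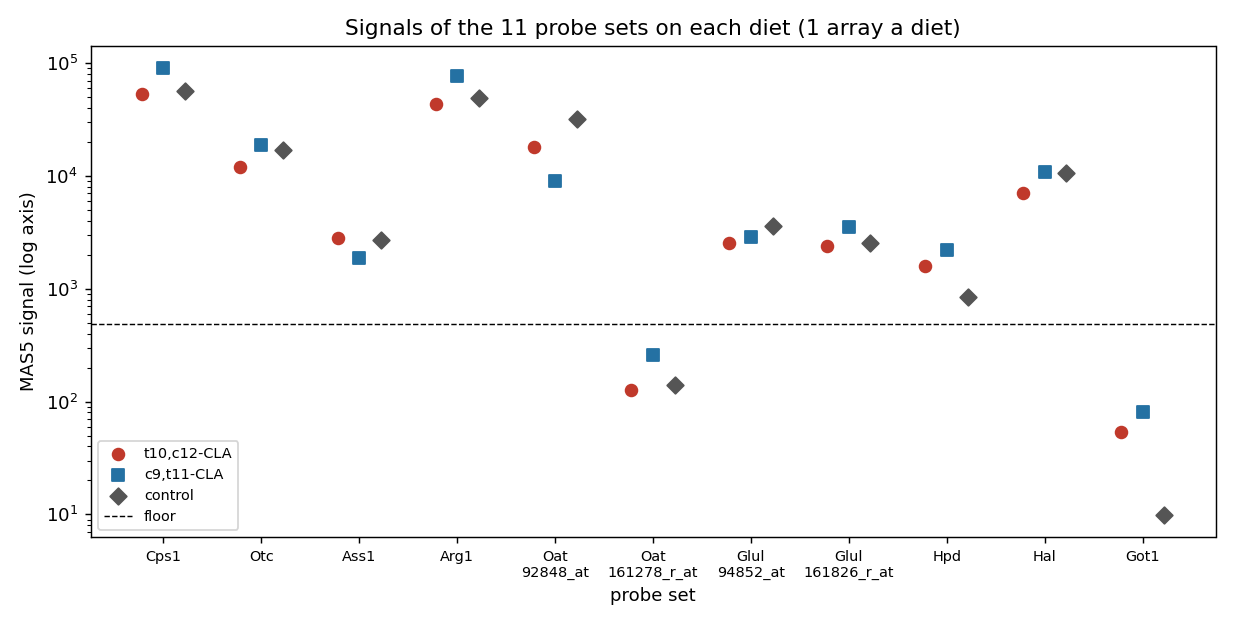
MAS5 signal (log axis) of each of the 11 probe sets on the t10,c12-CLA, c9,t11-CLA and control arrays, 1 point an array, with the floor of 490.3 dashed. For the brighter Oat probe set the control array is highest at 31732, and the dimmer Oat probe set and Got1 lie below the floor.

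A measure of technical spread came from genes with several probe sets, whose log2 differences would ideally be equal. Over 726 pairs of such probe sets the SD of a single log2 difference was 0.39 for t10,c12-CLA against control, and over 679 pairs it was 0.50 for c9,t11-CLA against control. It holds the error of single probe sets. A shift shared by all probe sets of an array cancels within a pair and is not part of it, and neither is the variation between mice.

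The urea cycle members Cps1, Arg1, Otc and Ass1 were measured on all arrays and none differed by 2-fold. Asl, an enzyme of the cycle that is not a member, is given further below. Its log2 differences from control on c9,t11-CLA were 1.23 for the brighter probe set and 0.22 for the other. Cps1, the mitochondrial enzyme that binds ammonia into carbamoyl phosphate, lies at chr1:67122426-67231267 (GRCm38.p6, as for all positions here) and gave signals of 53138 on t10,c12-CLA, 89997 on c9,t11-CLA and 57035 on control. The c9,t11-CLA array stood above the other 2, which were close to each other. The log2 differences from control were -0.10 on t10,c12-CLA and 0.66 on c9,t11-CLA. Arg1, which splits arginine into urea and ornithine in the last step of the cycle, lies at chr10:24915207-24927470 and gave 43828 on t10,c12-CLA, 77160 on c9,t11-CLA and 49279 on control. It showed the same order of arrays as Cps1, with log2 differences of -0.17 and 0.65. Otc, which joins carbamoyl phosphate to ornithine, lies at chrX:10252230-10321024 and gave 11941 on t10,c12-CLA, 18752 on c9,t11-CLA and 16967 on control. Its log2 difference was -0.51 on t10,c12-CLA and 0.14 on c9,t11-CLA, or -0.05 on c9,t11-CLA with equal array medians. Ass1, which joins citrulline to aspartate, lies at chr2:31470270-31520670 and gave 2824 on t10,c12-CLA, 1866 on c9,t11-CLA and 2684 on control. For Ass1 the c9,t11-CLA array was the lowest, with a log2 difference of -0.52, while t10,c12-CLA stood at 0.07, or -0.02 with equal medians.

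Cps1 and Arg1 were among the brightest probe sets of the array, and the brightest probe sets as a class were higher on c9,t11-CLA. The 123 probe sets with a mean signal over 30000 had a median log2 difference of -0.04 on t10,c12-CLA and 0.38 on c9,t11-CLA. The 353 probe sets between 10000 and 30000 had medians of -0.11 on t10,c12-CLA and -0.08 on c9,t11-CLA. The 991 probe sets between 3000 and 10000 had medians of 0.00 on t10,c12-CLA and -0.04 on c9,t11-CLA. The summed signal of the 7 hepatocyte markers was 183662 on t10,c12-CLA, 298619 on c9,t11-CLA and 181647 on control. Alb weighed heavily in this sum, with 101163 on c9,t11-CLA and 28437 on control. Ttr alone of the 7 was lower on c9,t11-CLA than on control, with 9384.5 against 17983. The median log2 difference of the 7 was 0.14 on t10,c12-CLA and 0.47 on c9,t11-CLA. Quantile normalization, which gives the arrays the same distribution of signals, brought the c9,t11-CLA difference of Cps1 to -0.06 and that of Arg1 to -0.04. The direction for these 2 genes on c9,t11-CLA therefore turned with the scaling. On t10,c12-CLA both stayed below 0 under equal medians (-0.19 and -0.26) and quantile normalization (-0.18 and -0.25).

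**Figure D2:**
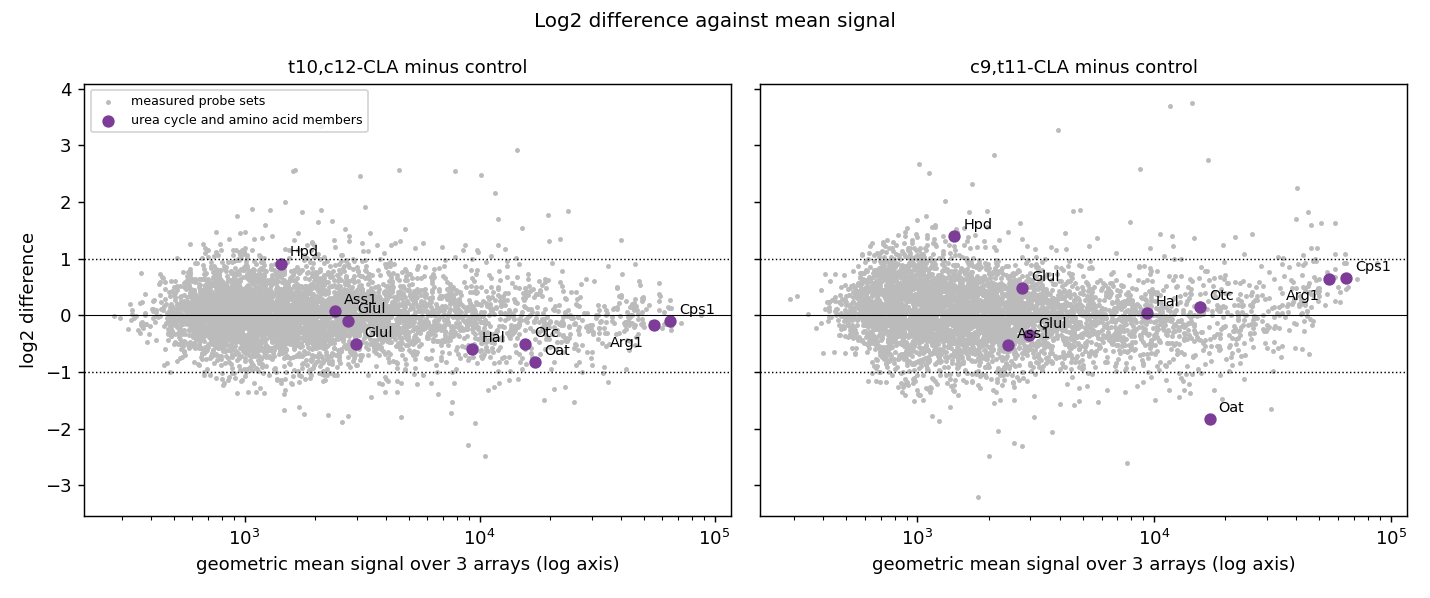
Log2 difference from control against the geometric mean signal over the 3 arrays (log axis) for t10,c12-CLA and c9,t11-CLA, with all measured probe sets in grey and the 9 member probe sets in purple. At the bright end of the c9,t11-CLA panel most grey points lie above 0, where Arg1 (0.65, or -0.04 after quantile normalization) and Cps1 (0.66, or -0.06) also lie, and Oat lies at -1.83.

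Oat had the widest range of the measured members. Ornithine aminotransferase, its mitochondrial product, turns ornithine into an intermediate of glutamate and proline, and in liver it is found mainly in hepatocytes near the central vein. The gene lies at chr7:132557475-132576398. Its brighter probe set gave 17885 on t10,c12-CLA, 8934 on c9,t11-CLA and 31732 on control. The c9,t11-CLA signal was lowest and the control signal highest, 3.55 times as bright. The log2 difference was -0.83 on t10,c12-CLA (1.77-fold lower) and -1.83 on c9,t11-CLA (3.55-fold lower). Only 9 of the 4932 measured probe sets were as low on c9,t11-CLA, Oat included, whereas 178 of 5037 (3.53%) were as low on t10,c12-CLA. Both differences were larger than the SD between probe sets of a gene. They were -0.92 and -2.02 with equal medians and -0.82 and -1.78 after quantile normalization. The lowest of the 3 signals was 18.2 times the floor. The other Oat probe set, whose identifier marks relaxed probe selection rules, gave 126, 260 and 140, in the same order of diets, all below the floor. The difference in Oat thus rests on a single probe set.

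Glul encodes glutamine synthetase, which fixes ammonia left over by the urea cycle and is restricted to the hepatocytes next to the central vein, and lies at chr1:153899929-153909723. The unmarked probe set gave 2542 on t10,c12-CLA, 2849 on c9,t11-CLA and 3626 on control, and log2 differences of -0.51 and -0.35. The probe set marked for relaxed probe selection gave 2372 on t10,c12-CLA, 3510 on c9,t11-CLA and 2526 on control, and log2 differences of -0.09 and 0.47. Both probe sets were lower than control on t10,c12-CLA, and they pointed opposite ways on c9,t11-CLA. The direction for Glul on c9,t11-CLA was thus not settled by these arrays.

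Hpd encodes 4-hydroxyphenylpyruvate dioxygenase, the enzyme that follows tyrosine aminotransferase in tyrosine breakdown, and lies at chr5:123171807-123182723. It gave 1579 on t10,c12-CLA, 2215 on c9,t11-CLA and 838 on control. Both CLA arrays were above control, with log2 differences of 0.91 on t10,c12-CLA (1.88-fold) and 1.40 on c9,t11-CLA (2.64-fold). Among all measured probe sets, 150 of 5037 (2.98%) were as high on t10,c12-CLA and 44 of 4932 (0.892%) on c9,t11-CLA. Both differences were larger than the SD between probe sets of a gene. The control signal of Hpd was 1.71 times the floor. Hal, histidine ammonia-lyase, which releases ammonia from histidine, lies at chr10:93488768-93516761 and gave 7017 on t10,c12-CLA, 10844 on c9,t11-CLA and 10596 on control. The c9,t11-CLA and control arrays were close for Hal, with a log2 difference of 0.03 (-0.16 with equal medians), and t10,c12-CLA stood at -0.59. Got1, the cytosolic aspartate aminotransferase at chr19:43499752-43524605, gave 53.7 on t10,c12-CLA, 80.1 on c9,t11-CLA and 9.9 on control. All 3 were far below the floor, so Got1 was not measured by this probe set and its signals have no order.

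**Figure D3:**
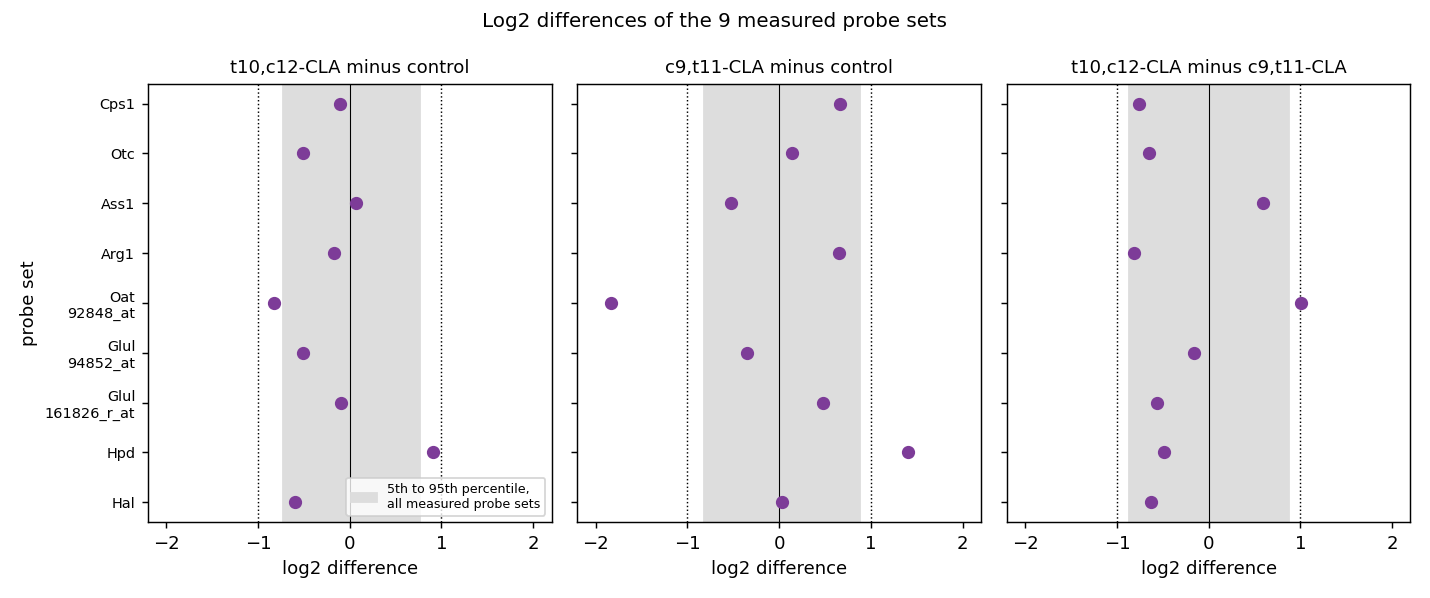
Log2 differences of the 9 measured member probe sets in the 3 comparisons, 1 point a probe set, with dotted lines at 2-fold and a grey band from the 5th to the 95th percentile of all measured probe sets. Oat (-0.83 and -1.83) and Hpd (0.91 and 1.40) lie outside the band in both comparisons with control, and Oat (1.00) does so between the isomers.

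The isomers, which carry their conjugated double bonds at different positions and in different geometry, were given at the same dose and for the same time, so the 2 CLA arrays were compared directly. Of the 9 measured probe sets 7 were lower on t10,c12-CLA than on c9,t11-CLA, with a median log2 difference of -0.57, against -0.05 for all 5017 measured probe sets. Oat alone reached 2-fold, at 1.00 (17885 on t10,c12-CLA and 8934 on c9,t11-CLA), and no member was 2-fold lower. Among all probe sets 3.43% were 2-fold higher and 2.65% 2-fold lower. The value for Oat lay on the 2-fold line, and was 0.96 after quantile normalization and 1.11 with equal medians. Ass1 was the other member higher on t10,c12-CLA, at 0.60. The members lower on t10,c12-CLA were Arg1 at -0.82, Cps1 at -0.76, Otc at -0.65, Hal at -0.63, Hpd at -0.49 and the 2 Glul probe sets at -0.57 and -0.16. The brightest probe sets as a class stood at -0.41 in this comparison, and after quantile normalization Arg1 and Cps1 stood at -0.21 and -0.12. Otc and Hal stood at -0.67 and -0.71 after quantile normalization. The SD between probe sets of a gene was 0.49 over 707 pairs. With 1 array a diet no interval of the difference between isomers can be given, and small values do not show that the isomers act alike.

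Other genes of nitrogen and amino acid metabolism came from 9 lists written from knowledge of the pathways, with 113 genes, of which 68 were on the array, each represented by its brightest probe set. On t10,c12-CLA 40 of the 54 measured genes were below control and 14 above, with a median log2 difference of -0.21 against -0.01 over all 4391 genes. None was 2-fold higher and 2 were 2-fold lower, against 2.05% and 1.87% of all genes. On c9,t11-CLA 25 were above control and 29 below, with a median of -0.02 against 0.02 over 4324 genes, and 3 were 2-fold higher and 3 lower, against 2.98% and 2.78%. Between the isomers 35 of 54 were lower on t10,c12-CLA, and 1 was 2-fold higher and 3 were 2-fold lower, against 3.47% and 2.56% of 4382 genes. The t10,c12-CLA median of these lists was -0.30 with equal array medians and -0.18 after quantile normalization, and the c9,t11-CLA median was -0.21 and -0.01. Under the same scalings the median over all measured probe sets was -0.09 and -0.01 on t10,c12-CLA. On c9,t11-CLA it was -0.15 with equal medians, so the lists' -0.21 lay close to the general shift, and 0.0 after quantile normalization.

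Beside the urea cycle members stood Asl, argininosuccinate lyase, which forms arginine. Asl gave 2950 on t10,c12-CLA, 4404 on c9,t11-CLA and 1883 on control, with log2 differences of 0.65 and 1.23. Its other probe set, marked for relaxed probe selection, stood at 0.24 and 0.22. Slc25a15, the mitochondrial ornithine carrier, stood at 0.09 on t10,c12-CLA and 0.40 on c9,t11-CLA. Car5a, the mitochondrial carbonic anhydrase that supplies bicarbonate to Cps1, stood at -0.20 and -0.11. Slc7a2, a carrier of arginine and ornithine, stood at -0.41 and -0.12. Arg2, the other arginase, gave 414 on t10,c12-CLA, 136 on c9,t11-CLA and 503 on control, and passed the floor on control alone.

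In the tyrosine pathway none of the 6 other measured genes reached 2-fold on either CLA diet. Among all genes 2.05% were 2-fold higher and 1.87% lower on t10,c12-CLA, and 2.98% and 2.78% on c9,t11-CLA. Tat, tyrosine aminotransferase, gave 28243 on t10,c12-CLA, 54644 on c9,t11-CLA and 35584 on control, with log2 differences of -0.33 and 0.62. Downstream of Hpd lie Hgd, Gstz1 and Fah, which open and split the ring product. They stood at -0.12, -0.12 and -0.13 on t10,c12-CLA and at 0.18, -0.11 and 0.26 on c9,t11-CLA. Qdpr and Pcbd1, which regenerate the cofactor tetrahydrobiopterin, stood at -0.39 and -0.21 on t10,c12-CLA and at -0.20 and 0.01 on c9,t11-CLA.

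For glutamate, Glud1, glutamate dehydrogenase, stood at -0.13 and 0.16, and Got2, the mitochondrial partner of Got1, at 0.10 and -0.03. The Got2 values rest on a probe set with a marked identifier. Near Oat in the pathway, Prodh2, a proline and hydroxyproline dehydrogenase, stood at -0.76 on t10,c12-CLA and -0.38 on c9,t11-CLA. Azin1, an inhibitor of the antizyme that restrains ornithine decarboxylase, stood at -0.69 and -0.85, and Odc1, ornithine decarboxylase, at -0.02 and 0.18. Hdc, histidine decarboxylase and the only other histidine gene on the array, was below the floor on all arrays.

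Beside Asl, few genes of these lists passed 2-fold. On t10,c12-CLA they were Agxt, alanine-glyoxylate aminotransferase, at -1.20, and Pccb, a subunit of propionyl-CoA carboxylase, at -1.01. Agxt gave 3617 on t10,c12-CLA, 8100 on c9,t11-CLA and 8320 on control, so that t10,c12-CLA alone was low. On c9,t11-CLA Aadat, an aminotransferase of lysine and tryptophan breakdown, stood at 1.20. Tdo2, tryptophan dioxygenase, stood at 1.07 on c9,t11-CLA for a probe set with a marked identifier, and its other, unmarked probe set at 0.57. Their signals on c9,t11-CLA were 101775 and 29645. Psph, the last enzyme of serine synthesis, stood at -1.40 on c9,t11-CLA, with signals of 1272 on t10,c12-CLA, 559 on c9,t11-CLA and 1475 on control. Hibadh, a dehydrogenase of valine breakdown, stood at -0.74 on t10,c12-CLA and -1.02 on c9,t11-CLA. Slc1a2, a glutamate carrier, stood at -0.94 and -1.01. Between t10,c12-CLA and c9,t11-CLA, Psph stood at 1.18, Aadat at -1.25 and Agxt at -1.16.

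Branched-chain genes had a median of -0.42 over 13 genes on t10,c12-CLA and -0.10 over 14 genes on c9,t11-CLA. Hsd17b10, a dehydrogenase of isoleucine breakdown, stood at -0.95 on t10,c12-CLA and -0.31 on c9,t11-CLA. Mcee, methylmalonyl-CoA epimerase, stood at -0.35 and -0.87. Ivd, isovaleryl-CoA dehydrogenase of leucine breakdown, stood at -0.68 and 0.42, and at -1.10 between t10,c12-CLA and c9,t11-CLA. Bckdhb, a subunit of the branched-chain keto acid dehydrogenase, stood at -0.65 and -0.11, and Bcat2, the mitochondrial aminotransferase, at 0.63 and -0.01. Bcat1, the cytosolic aminotransferase, passed the floor on c9,t11-CLA alone, where it was at least 2.27-fold higher than on control.

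The methionine cycle held very bright genes. Ahcy, which splits adenosylhomocysteine, stood at -0.26 on t10,c12-CLA and 0.69 on c9,t11-CLA, with other probe sets at 0.12 and -0.69 on t10,c12-CLA and 1.63 and 0.11 on c9,t11-CLA. The Ahcy probe sets thus pointed opposite ways on t10,c12-CLA, and the one at 0.12 and 1.63 has a marked identifier. Bhmt, which remethylates homocysteine, stood at -0.14 and 0.64, and its other probe set at -0.60 and -0.14. Gnmt, glycine methyltransferase, stood at -0.32 and 0.48, and Csad of taurine synthesis at 0.48 and -0.50. Between the isomers the list's median was -0.42, or 0.02 after quantile normalization. In lysine breakdown Aass, the first enzyme, stood at 0.32 and 0.62, Pipox at -0.70 and -0.34 and Gcdh at -0.45 and 0.07. In serine and glycine metabolism Shmt2, the mitochondrial hydroxymethyltransferase, stood at 0.26 and 0.87, on a probe set with a marked identifier. Dld and Gcsh, parts of the glycine cleavage system, stood at -0.38 and -0.36 on t10,c12-CLA and -0.75 and -0.62 on c9,t11-CLA.

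**Figure D4:**
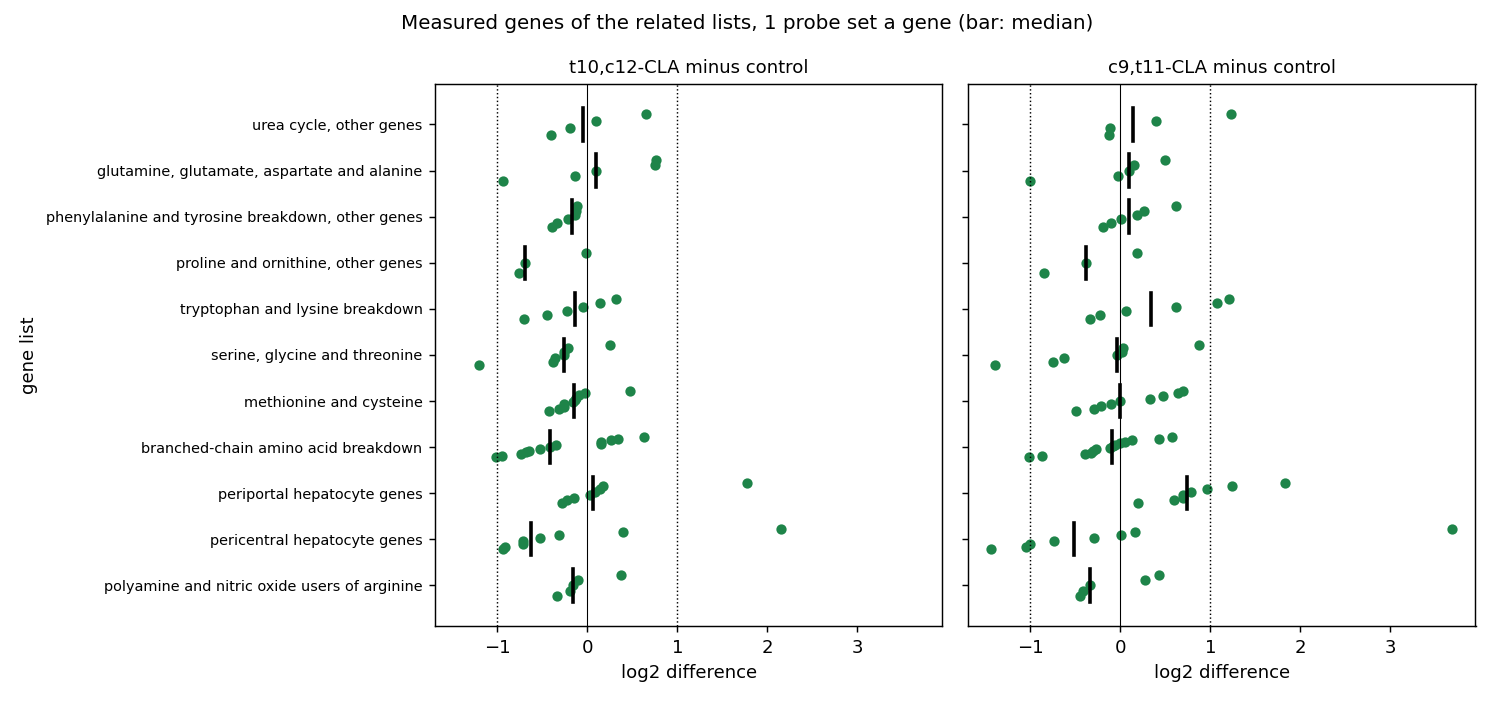
Log2 differences from control of the measured genes of 11 related gene lists on t10,c12-CLA and c9,t11-CLA, 1 point a gene, with the list median as a bar and dotted lines at 2-fold. On t10,c12-CLA the branched-chain genes have a median of -0.42, and on c9,t11-CLA the periportal genes have a median of 0.74 and the pericentral genes one of -0.52.

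Because the urea cycle members are periportal and Oat and Glul pericentral in liver, other genes of these zones were set beside them. Periportal genes had a median of 0.06 over 8 genes on t10,c12-CLA, with 1 at least 2-fold higher, and of 0.74 on c9,t11-CLA, with 2 higher and none lower. The 2 were Alb, albumin, at 1.83 and G6pc, glucose-6-phosphatase, at 1.24, and G6pc was also the 1 on t10,c12-CLA, at 1.78. Apoa4, Pck1, Pigr, Cdh1 and Cyp2f2 stood between 0.60 and 0.96 on c9,t11-CLA and Fbp1 at 0.19. Alb, Pigr, Apoa4 and Fbp1 gave between 48001 and 101163 on c9,t11-CLA, where the brightest probe sets were higher as a class. After quantile normalization the periportal median on c9,t11-CLA was 0.61, and with equal medians it was 0.55. On t10,c12-CLA it was -0.03 with equal medians and 0.18 after quantile normalization, so no direction held there. Pericentral genes had a median of -0.62 over 8 genes on t10,c12-CLA, with 1 at least 2-fold higher and none lower, and of -0.52 on c9,t11-CLA, with 1 higher and 3 lower. Over all genes the medians were -0.01 on t10,c12-CLA and 0.02 on c9,t11-CLA. Of all genes 2.05% were 2-fold higher and 1.87% lower on t10,c12-CLA, and 2.98% higher and 2.78% lower on c9,t11-CLA. Slc1a2, which brings glutamate into the cells that hold Glul, gave 566 on t10,c12-CLA, 540 on c9,t11-CLA and 1084 on control, and was close to the floor on both CLA arrays. Aldh3a2, a fatty aldehyde dehydrogenase, stood at 0.39 and -1.44, with another probe set at 0.51 and -0.46. Cyp7a1, the rate-limiting enzyme of bile acid synthesis, stood at -0.72 and -0.30, Lect2 at -0.32 and -0.74 and Cyp1a2 at -0.53 and 0.16. Rgn, regucalcin, stood at -0.92 and 0.00 and Ahr, the dioxin receptor, at -0.72 and -1.05. Ahr gave 713 on t10,c12-CLA, 564 on c9,t11-CLA and 1171 on control, and was close to the floor on c9,t11-CLA. The 3 lower genes on c9,t11-CLA were Slc1a2, Ahr and Aldh3a2. Cyp2e1, the cytochrome that marks the same zone, stood at 2.15 and 3.69, with 13411 on t10,c12-CLA, 39035 on c9,t11-CLA and 3022 on control. The measured pericentral genes thus lay on both sides of control on each CLA diet, and their medians stayed below 0 under both other scalings. Lgr5, which marks the cells next to the central vein, was below the floor on all arrays.

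The pattern of Oat was compared with that of 4153 other genes above the floor on all arrays, by the distance between their pairs of log2 differences from control. The nearest was Pus1, a pseudouridine synthase, at a distance of 0.06, with -0.84 on t10,c12-CLA and -1.77 on c9,t11-CLA. Then came Btbd1 at 0.29, H2-M3 at 0.35, Etfdh at 0.40 and Cfhr2 at 0.40. Etfdh encodes the dehydrogenase that passes electrons from fatty acid and amino acid breakdown to ubiquinone, and gave 5189 on t10,c12-CLA, 2493 on c9,t11-CLA and 7430 on control. The c9,t11-CLA signals of Pus1, Btbd1 and H2-M3 were 619, 591 and 654, not far above the floor, and the probe sets of H2-M3 and Cfhr2 carry an identifier mark. The distance rests on 3 arrays and describes them only.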

How the data were processed

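Liver RNA was hybridised to 3 arrays, 1 a diet, from 8 µg of total RNA each, per the labels' protocols. Values were MAS5 signals, an intensity per probe set on a linear scale, deposited by the authors. MAS5 is named in the submitters' processing notes. The 2%-trimmed mean was 1501 on every array, so the deposited arrays shared a scale, and no further scaling was applied. Gene symbols came from the platform annotation, updated by Entrez identifier through RefSeq genes of GRCm38.p6 (10817 of 10833 probe sets matched). Probe sets with several symbols (396) or none in that annotation (1193) and 66 array controls were left out. The floor was the pooled median, and past 2-fold means a log2 difference of at least 1 in size, above the floor on both arrays. Lists took the brightest probe set of each gene, by its mean log2 signal.

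The alternatives were equal array medians, quantile normalization, floors at the 25th and 75th percentile (144.9 and 1510.9), 50 signal units added before log2, leaving out probe sets with a marked identifier, 1 probe set a gene, and 1.5-fold in place of 2-fold. The scalings of the list medians were added after seeing the data. The members, lists and named genes were chosen with earlier results of these data known. Named were all member probe sets, list genes past 2-fold, the up to 6 next largest differences of a list, a few fixed genes, and the 5 genes nearest to the member with the widest log2 range above the floor. Marker lists are given as counts, sums, medians or single signals for hepatocytes, macrophages, adipocytes, pancreas, kidney, intestine and muscle. Those of stellate, endothelial, bile duct, erythroid and lymphoid cells and of neutrophils are not described. Python 3.11.15, numpy 2.4.6, pandas 2.3.3 and matplotlib 3.10.9 were used, and counting was tested on simulated data. With so few arrays, precision is limited throughout.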

Additional observations from a re-analysis of the deposited data

How the results depend on the processing

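No paired analysis was possible because each diet has 1 array. Of 69 counts and medians recomputed under the alternatives, 61 stayed the same or moved by less than the spread between probe sets of a gene, and 8 moved. With 1.5-fold in place of 2-fold, 1 member probe set was higher and 2 lower on t10,c12-CLA than on control, 3 were higher on c9,t11-CLA than on control, and 2 were higher and 4 lower on t10,c12-CLA than on c9,t11-CLA. Of all measured probe sets 9.65% and 8.76%, 13.3%, and 11.3% and 13.2% passed 1.5-fold in these directions. With the floor at the 75th percentile, 0 were 2-fold higher on c9,t11-CLA, because Hpd on control fell below it. Between the isomers, 0 were 2-fold higher after quantile normalization and with 50 units added, since Oat lay on the line. The median difference between t10,c12-CLA and control was between -0.34 and -0.17, that between c9,t11-CLA and control between -0.05 and 0.14, and that between the isomers between -0.57 and -0.21. Hpd against control has no value at the highest floor, and the marked Glul probe set has none where marked probe sets were left out or 1 was kept a gene. Of 181 values of single probe sets, 4 moved by more than the spread between probe sets, all after quantile normalization, for Arg1 and Cps1 in the comparisons that use the c9,t11-CLA array. Only equal medians, quantile normalization and the 50 added units could change such a value. The other floors and the choice of probe sets leave a single value as it was, so its staying the same there was fixed in advance. Smaller sign changes are given beside Ass1, Otc and Hal. For all probe sets past 2-fold between the isomers, higher ones made up 72.6% with equal medians, in place of 56.4%. Of the list medians on c9,t11-CLA, that of tyrosine genes was -0.10 with equal medians and -0.04 after quantile normalization in place of 0.09, and those of urea cycle and glutamine genes, 0.14 and 0.10, were -0.05 and -0.10 with equal medians. Signals near or below the floor have no order, which limits Got1 and the dimmer Oat probe set.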

Other observations

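Transcription factors known to act on these enzymes did not differ by 2-fold from control among the 8 measured of 12 on the array. Among all genes 2.05% were 2-fold higher and 1.87% lower on t10,c12-CLA, and 2.98% and 2.78% on c9,t11-CLA. With so few factors, none past 2-fold lies near those shares and does not show that they were unchanged. Cebpb, a factor induced by glucagon and inflammation, gave 14223 on t10,c12-CLA, 17553 on c9,t11-CLA and 8864 on control, with log2 differences of 0.68 and 0.99. Hnf4a, a hepatocyte factor, stood at 0.42 and 0.93 and Cebpa at -0.10 and 0.04. Ctnnb1, which drives pericentral genes, stood at -0.42 and -0.55. The brightest probe set of the receptor Nr1i3, marked for relaxed probe selection, stood at -0.25 and -0.23. The other Nr1i3 probe sets stood at -0.74 and -0.84 on t10,c12-CLA and -0.84 and -0.52 on c9,t11-CLA. Foxa2 gave 933 on t10,c12-CLA, 1981 on c9,t11-CLA and 1728 on control, with log2 differences of -0.89 and 0.20, and stood at -1.09 between t10,c12-CLA and c9,t11-CLA. Ppara stood at 0.16 on t10,c12-CLA and -0.28 on c9,t11-CLA. Nr3c1, the glucocorticoid receptor, was below the floor on all 3 arrays.

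Genes that use arginine or ornithine for creatine, polyamines or nitric oxide had a median of -0.16 on t10,c12-CLA and -0.34 on c9,t11-CLA over 5 measured genes. None was past 2-fold, which for 5 genes lies near the shares of all genes given above. Gatm, which starts creatine synthesis, stood at 0.37 and -0.45, and Gamt, which completes it, at -0.34 and 0.27, with another Gamt probe set at -0.09 and -0.01. Srm, spermidine synthase, stood at -0.16 and 0.42, Sat1, which acetylates polyamines, at -0.19 and -0.41, and Ddah2 at -0.10 and -0.34. The Srm probe set has a marked identifier. Nos2, the inducible nitric oxide synthase, passed the floor on c9,t11-CLA alone, and Nos1 and Nos3 were below it on all 3 arrays. In the list of glutamine, glutamate, aspartate and alanine genes, Asns, asparagine synthetase, stood at 0.76 on t10,c12-CLA and 0.10 on c9,t11-CLA, and the amino acid carrier Slc38a2 at 0.76 and 0.50. The list's median was 0.10 on both diets over 5 measured genes. Markers of macrophages and Kupffer cells had a summed signal over 12 genes of 108699 on t10,c12-CLA, 68608 on c9,t11-CLA and 82082 on control, and Marco was below the floor on all 3 arrays. Over the 11 measured genes the median log2 difference was 0.38 on t10,c12-CLA and -0.15 on c9,t11-CLA. Single markers lay on both sides of control, with C1qc at 0.90 and Lyz2 at -0.44 on t10,c12-CLA. On c9,t11-CLA Clec4f stood at 0.84 and Cd5l at -0.89. Whether these markers bear on the enzymes was not tested.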
